A study of Drosophila melanogaster with 12 samples.

Results

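The adipokinetic hormone receptor and 4 genes of glycogen control were examined across all 12 arrays of the series. The 5 genes are AkhR (named GRHR on the array), PhKgamma, CG7766, Gbs-70E (CG9238) and Gbs-76A (CG9619). They were found by symbol, synonym or CG number in the array annotation. Each probe was printed as 2 adjacent spots, which were averaged into 1 feature. The 5 genes had 7 features of 13824 on the array, of which 7558 carried a single gene symbol. PhKgamma and Gbs-70E had 2 features each, called A and B here in spot order.

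Adipokinetic hormone is the insect counterpart of glucagon, released by neurosecretory cells near the brain. Its receptor, a G protein-coupled receptor mainly of the fat body, acts through cyclic AMP and calcium to mobilise stored fat and glycogen. Phosphorylase kinase then switches on glycogen phosphorylase, which breaks glycogen down, while glycogen binding subunits hold protein phosphatase 1 on the glycogen particle, where it favours synthesis.

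Heads of unmated Oregon-R males, a wild type strain, 3 to 4 days old at the start, were compared between flies kept on normal food (NF) and flies kept on NF with 8 mg/ml of pentylenetetrazol (PTZ), a convulsant that blocks GABA receptors. Vials held 30 flies, and RNA came from pooled heads taken after 12 hrs of feeding or on its 2nd or 7th day. Each time point had 4 arrays, and each array set a PTZ pool against an NF pool in 2 dyes, so the values are ratios and give no level of a gene. Replicates 1 and 2 carried PTZ in Cy5 (forward arrays), and replicates 3 and 4 carried PTZ in Cy3 (swapped arrays).

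The sources do not state whether the ratios of the swapped arrays had been turned to PTZ over NF before deposit. Both readings are therefore given throughout. In the turned reading the swapped values change sign, and in the other all values stand as deposited. A negative value on a forward array means less signal from PTZ than from NF in both readings, but there the dye and the treatment cannot be told apart. The labels of 3 arrays contradict themselves about the channels (replicates 3 and 4 at 12 hrs, replicate 2 on the 2nd day), and these were placed by their titles.

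Between 3088 and 9051 features had a value on an array. Array medians ran from -0.64 (7th day replicate 4) to 0.16, the former standing apart from the rest. The forward arrays of a time point correlated over features at r = 0.43 (12 hrs), 0.73 (2nd day) and -0.14 (7th day). As deposited, forward and swapped arrays correlated from -0.26 to -0.05 (12 hrs), from -0.13 to 0.30 (2nd day) and from -0.27 to 0.38 (7th day). Ratios cannot show whether head tissue is pure. Among features with at least 3 arrays at 12 hrs there were 3 eye marker genes and none of the accessory gland and testis list, of which 1 was measured on the 7th day.

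How often a feature was measured differed among the genes. Gbs-76A had a value on all 12 arrays, Gbs-70E B on 10, Gbs-70E A on 9, and CG7766 and PhKgamma B on 8 each. AkhR had a value on 6 arrays, 4 of them at 12 hrs, and PhKgamma A on 3. AkhR was thus measured on 1 array on each later day. Of 3715 features with all 4 arrays at 12 hrs, 16 (0.431%) had no more than 1 array on both later days. PhKgamma B had all 8 arrays of the first pair of time points and none of the 7th day, as did 229 of 3118 features (7.34%). A missing value means only that the spots did not pass the authors' filters. The 2 spots of a feature differed by a median of 0.12 on the log2 scale over 56 pairs of these genes, against 0.14 over all features.

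**Figure D1:**
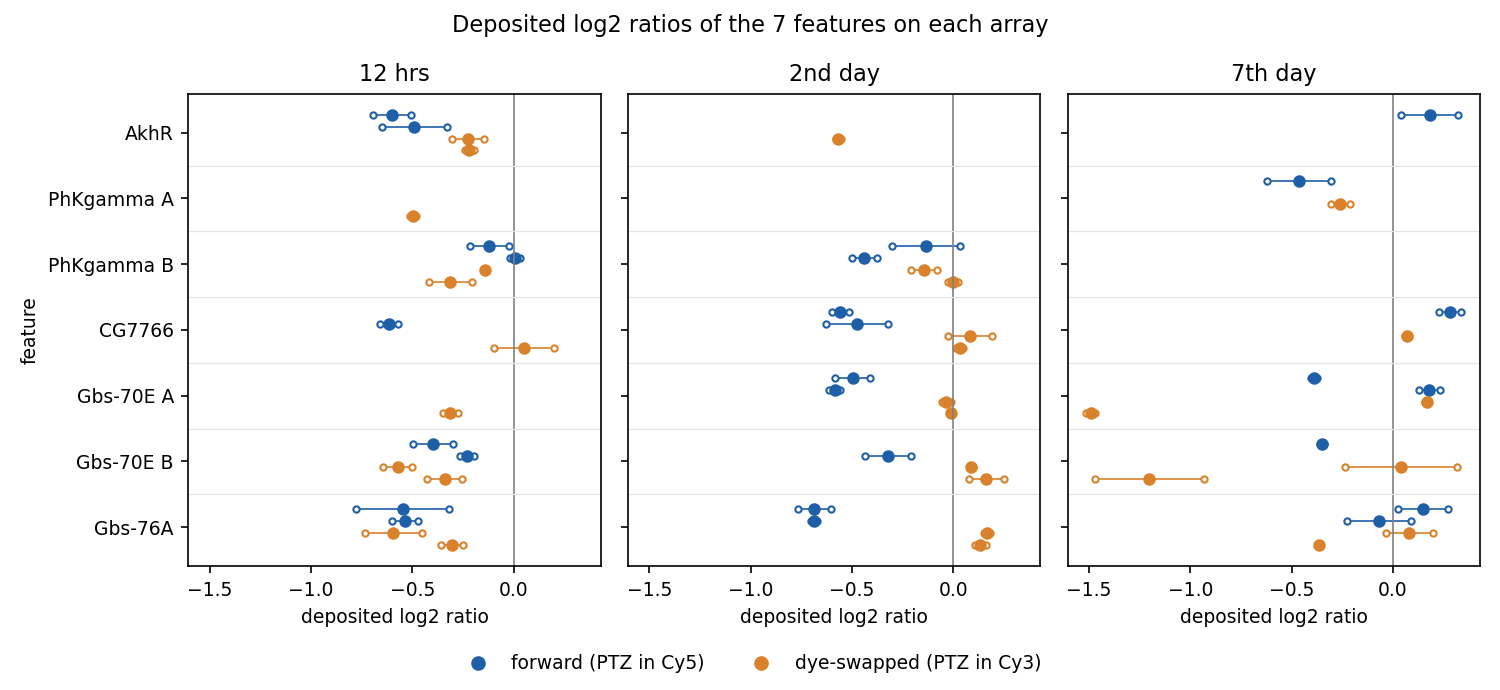
Deposited log2 ratio (horizontal axis) of the 7 features (vertical axis) at the 3 time points. Filled circles are feature means, open circles joined by a line are the 2 spots, blue marks forward and orange dye-swapped arrays, and the rows within a feature are replicates 1 to 4 from top to bottom. At 12 hrs all circles of AkhR, Gbs-70E B and Gbs-76A lie left of 0, and on the 2nd day the forward and swapped circles of Gbs-76A lie apart.

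The receptor was measured on all 4 arrays only at 12 hrs. AkhR was at -0.60 and -0.49 on the forward arrays and, as deposited, at -0.23 and -0.22 on the swapped arrays. Both forward values lay in the lowest part of their arrays, with 1.44% and 4.10% of features below them, and the swapped values had 30.8% and 16.4% below. The forward arrays alone gave a mean of -0.54, a PTZ signal of 68.6% of NF, which passed the limma test over 3938 features (adjusted p = 0.0196).

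Over the 4 arrays the call did not hold. The mean of AkhR was -0.16 ± 0.45 (SD, n = 4) turned (adjusted p = 0.582) and -0.38 ± 0.19 as deposited (adjusted p = 0.997, limma). In the turned reading the forward arrays were below 0 and the swapped arrays above it, so the orientations opposed each other. At the later times AkhR was at -0.57 as deposited on the single swapped array of the 2nd day, which is 0.57 turned, and at 0.18 on the single forward array of the 7th day. No test was possible there.

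The neighbours of AkhR on the array were also low on the forward arrays at 12 hrs. The median of the 10 features before and 10 after it in spot order was -0.27 and -0.47 there, against -0.06 and 0.07 on the swapped arrays. With that median subtracted, AkhR was at -0.33 and -0.02 on the forward arrays and at -0.17 and -0.29 on the swapped arrays as deposited. The second forward array thus hardly differed from its surroundings.

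PhKgamma encodes the catalytic subunit of phosphorylase kinase. Its feature B lies 2 features from AkhR in spot order, within the same group of low neighbours. At 12 hrs PhKgamma B was at -0.12 and 0.0065 on the forward arrays and at -0.14 and -0.31 as deposited on the swapped arrays. The mean was 0.08 ± 0.19 (SD, n = 4) turned and -0.14 ± 0.13 as deposited, and neither passed (adjusted p = 0.657 and 0.997, limma).

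PhKgamma B was on the 2nd day at -0.14 and -0.44 on the forward arrays and at -0.15 and -0.0015 as deposited on the swapped arrays. The mean was -0.11 ± 0.25 (SD, n = 4) turned and -0.18 ± 0.18 as deposited (adjusted p = 0.745 and 0.333, limma). The forward mean of -0.29 did not pass (adjusted p = 0.0734). With its neighbours subtracted the gene stood above 0 on both forward arrays of both times, at 0.35 and 0.54 at 12 hrs and at 0.30 and 0.14 on the 2nd day. On the swapped arrays as deposited the same gave -0.08 and -0.38 at 12 hrs and 0.10 and -0.12 on the 2nd day.

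PhKgamma A was at -0.50 on 1 swapped array at 12 hrs, and at -0.46 (forward) and -0.26 (swapped, as deposited) on the 7th day. The only array with both features was replicate 4 at 12 hrs, where A and B differed by 0.18. With features of 2 arrays admitted to the fit, the turned mean of PhKgamma A on the 7th day was -0.10 (n = 2, adjusted p = 0.988, limma).

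CG7766 encodes a regulatory subunit of phosphorylase kinase. CG7766 was on the 2nd day at -0.56 and -0.47 on the forward arrays and at 0.08 and 0.03 as deposited on the swapped arrays. The orientations did not overlap, as for 48.3% of 4111 features, and once turned all 4 arrays were below 0, as were those of 595 features (14.5%). The turned mean was -0.29 ± 0.27 (SD, n = 4; adjusted p = 0.531) and the deposited mean -0.23 ± 0.33 (adjusted p = 0.330, limma).

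On the forward arrays alone the mean of CG7766 was -0.52, or 69.9% of NF, and passed the test (adjusted p = 0.000831, limma). Its neighbours stood at -0.34 and -0.55 there, and after their subtraction CG7766 was at -0.21 and 0.07. The gene was therefore low together with its surroundings in spot order. At 12 hrs it had a value of -0.62 on 1 forward array and 0.05 on 1 swapped array, and on the 7th day 0.28 and 0.07.

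Gbs-70E and Gbs-76A encode glycogen binding subunits of protein phosphatase 1. At 12 hrs both lay below 0 on all 4 arrays as deposited. Gbs-76A was at -0.55 and -0.53 on the forward arrays and at -0.59 and -0.30 on the swapped arrays, with 1.67% to 9.83% of features below it. Gbs-70E B was at -0.40, -0.23, -0.57 and -0.34 in the order of replicates, with 3.98% to 18.4% below it.

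With AkhR, 3 of the 4 features measured on every array at 12 hrs were below 0 on all of them as deposited, as were 4.9% of 3715 features. These 3 also had an unadjusted p under 0.05 (0.0012 to 0.0087), as did 1.53% of 4642 features in that direction. In the turned reading none of the 4 had all arrays on one side of 0. These genes were among those that the study picked from these same arrays for follow-up, so their low deposited values are no independent evidence of a direction.

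The mean of Gbs-76A at 12 hrs was -0.49 ± 0.13 (SD, n = 4) as deposited (adjusted p = 0.997) and -0.05 ± 0.58 turned (adjusted p = 0.914). That of Gbs-70E B was -0.39 ± 0.14 as deposited (adjusted p = 0.997) and 0.07 ± 0.46 turned (adjusted p = 0.823). With 4 arrays an exact sign-flip test could not go below p = 0.125. The large SD of the turned means comes from forward and swapped arrays on opposite sides of 0.

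On the forward arrays of 12 hrs alone Gbs-76A was at a mean of -0.54, or 68.7% of NF, and passed (adjusted p = 0.0211), while Gbs-70E B at -0.31 did not (adjusted p = 0.281, limma). Of the 4 features tested there, AkhR and Gbs-76A were called lower, and 1.3% of all 3938 features were. The neighbours of Gbs-76A were between -0.12 and 0.03 on the 4 arrays, and with their median subtracted the gene was at -0.58, -0.47, -0.47 and -0.21 as deposited. For Gbs-70E B the same gave -0.59, -0.23, -0.59 and -0.46. Both genes were thus low against their surroundings on all 4 arrays as deposited.

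**Figure D2:**
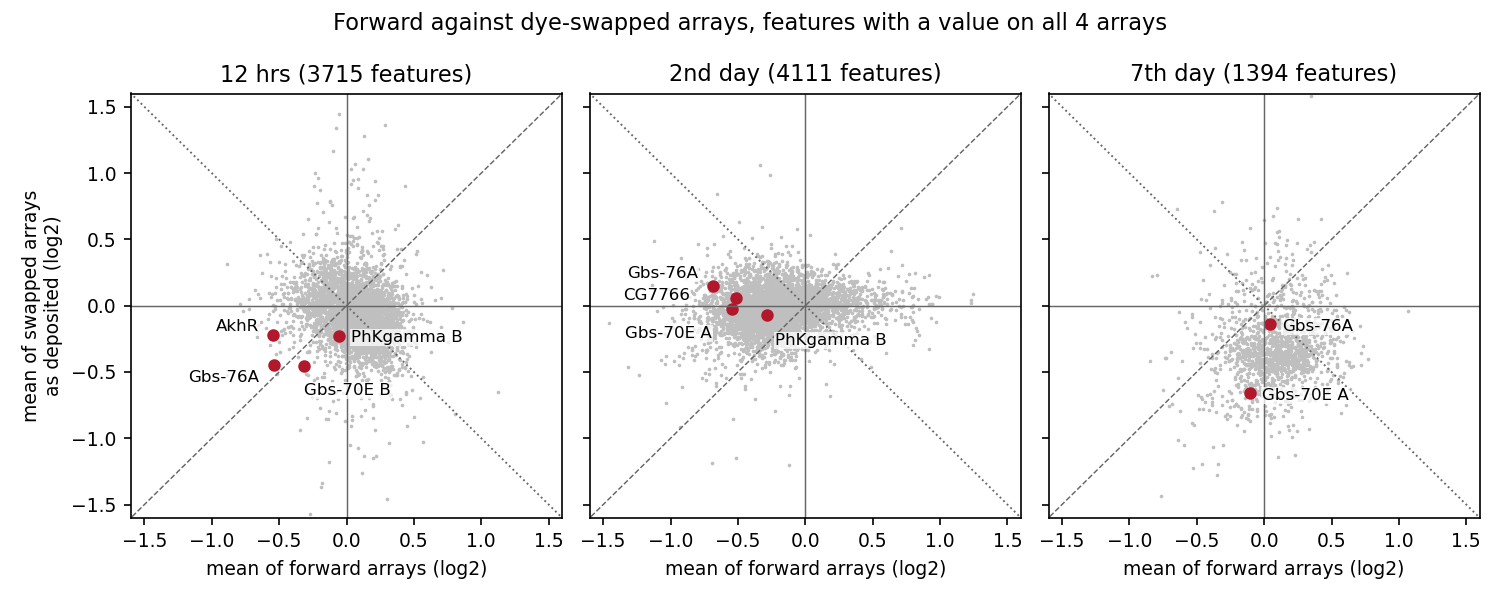
Mean of the 2 forward arrays against mean of the 2 swapped arrays as deposited (log2), for features with all 4 arrays. Grey points are features (10, 2 and 1 of them lie outside the axes), red points the genes described, the dashed line equal values and the dotted line equal values of opposite sign. At 12 hrs AkhR, Gbs-76A and Gbs-70E B lie in the lower left, and on the 2nd day Gbs-76A, CG7766 and Gbs-70E A lie at the left near or above 0 on the vertical axis.

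On the 2nd day the pattern across dyes differed from that of 12 hrs. Gbs-76A was at -0.69 on both forward arrays and at 0.17 and 0.13 as deposited on the swapped arrays. As for CG7766, the orientations did not overlap, and all 4 arrays were below 0 once turned. The turned mean was -0.42 ± 0.31 (SD, n = 4; adjusted p = 0.497) and the deposited mean -0.27 ± 0.48 (adjusted p = 0.356, limma).

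Gbs-70E A was then at -0.50 and -0.59 on the forward arrays and at -0.034 and -0.013 as deposited on the swapped arrays, which were close to 0. Its mean was -0.26 ± 0.33 (SD, n = 4) turned and -0.28 ± 0.30 as deposited (adjusted p = 0.541 and 0.241, limma). Gbs-70E B had 1 forward value, -0.32, and swapped values of 0.09 and 0.16, with means of -0.19 ± 0.12 (SD, n = 3) turned and -0.02 ± 0.26 as deposited (adjusted p = 0.611 and 0.926). For both features the swapped values were smaller in size than the forward ones.

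The mean of the forward arrays on this day was -0.69 for Gbs-76A, 62.1% of NF (adjusted p = 5.76e-06), and -0.54 for Gbs-70E A, 68.7% of NF (adjusted p = 0.000437, limma). With CG7766, 3 of the 4 features tested there were called lower. The same was true of 33.3% of all 4964 features, and the median of all features was -0.20, so a lower call was common on these arrays. Against the median of its neighbours Gbs-76A was at -0.30 and -0.23, and Gbs-70E A at -0.59 and -0.54. Most of the distance from 0 of Gbs-76A was shared with its neighbours, and that of Gbs-70E A was not.

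When dye orientation was fitted as a second coefficient over the 4 arrays of the 2nd day, Gbs-76A (-0.42, adjusted p = 0.000825), CG7766 (-0.29, adjusted p = 0.016) and Gbs-70E A (-0.26, adjusted p = 0.0291) passed with the swapped arrays turned, as did 14.1% of 5279 features in that direction. The corresponding coefficients as deposited were -0.27 (adjusted p = 0.0156), -0.23 (adjusted p = 0.0377) and -0.28 (adjusted p = 0.0117, limma), and 23.5% of features were called lower. Of the 5 features tested, 3 were called in each reading. The SE was 0.085 for each of these 3 and 0.087 for PhKgamma B, so the p follows mainly the size of the coefficient. In this fit the spread comes only from differences between arrays of the same orientation. The coefficients of both readings belong to the same fit, where the PTZ effect of either reading is the dye effect of the other. Both are negative wherever the forward mean is negative and larger in size than the swapped mean. Their shared sign therefore gives no direction. At 12 hrs and on the 7th day no feature of these genes passed in this fit, beside 0% of all features at 12 hrs and 0% (turned) or 0.209% (as deposited) on the 7th day.

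On the 7th day the values of Gbs-70E A were -0.39, 0.18, 0.17 and -1.49 as deposited, in the order of replicates, and those of Gbs-70E B -0.35, 0.04 and -1.20 on replicates 1, 3 and 4. The low value on replicate 4 came from the array whose median was -0.64, but only 0.642% and 3.24% of its features lay below A and B. Gbs-76A, at -0.36 on that array, lay above 72.6% of features there. The values of Gbs-76A were 0.15, -0.07 and 0.08 on the other arrays.

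The means of the 7th day were 0.28 ± 0.84 (SD, n = 4) turned and -0.38 ± 0.78 as deposited for Gbs-70E A, 0.27 ± 0.82 (n = 3) and -0.50 ± 0.64 for Gbs-70E B, and 0.09 ± 0.21 (n = 4) and -0.05 ± 0.23 for Gbs-76A. None passed in either reading (adjusted p between 0.489 and 0.967, limma), and the spread between arrays exceeded each mean. The forward means of -0.10 for Gbs-70E A and 0.04 for Gbs-76A did not pass either (adjusted p = 0.997 for both), nor did any of 2944 features (0%), with 2.21% at an unadjusted p under 0.05.

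Features A and B of Gbs-70E had values together on 7 arrays. They differed there by 0.03 to 0.29, with a median of 0.13, and had the same sign on 5 of 7.

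**Figure D3:**
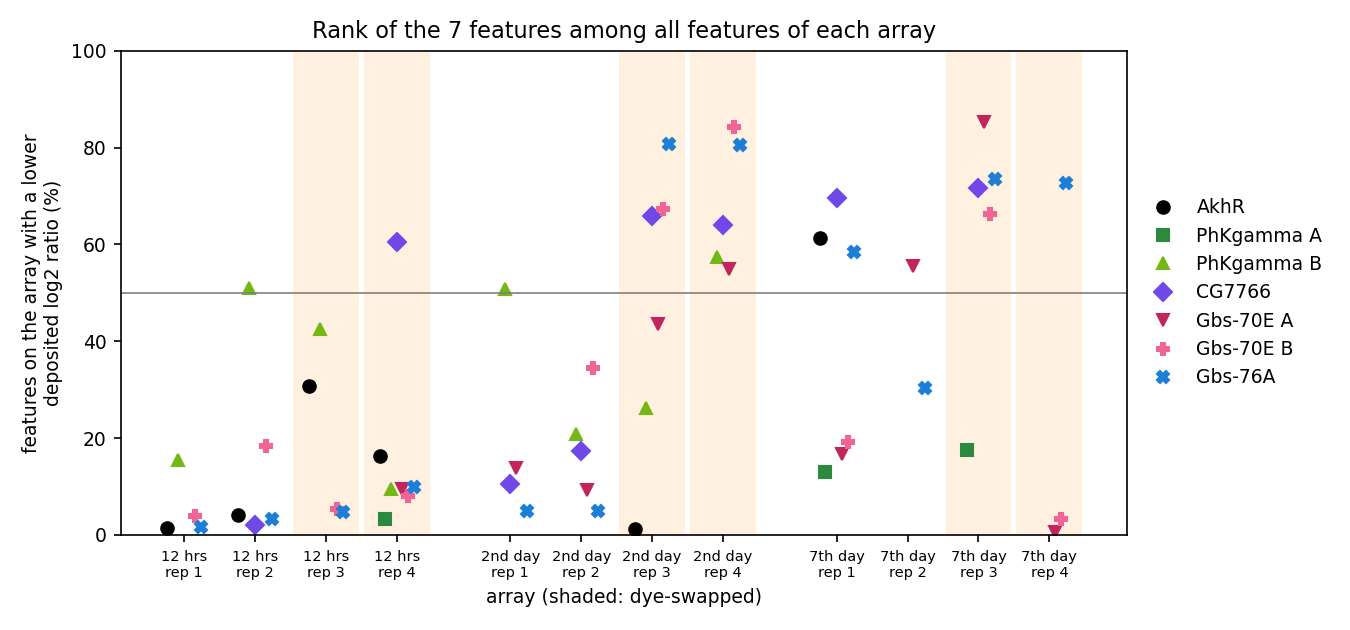
Percentage of features on each array with a lower deposited log2 ratio than the feature shown (vertical axis, 50% line drawn), for the 12 arrays (horizontal axis, dye-swapped arrays shaded). At 12 hrs Gbs-76A stays between 1.67% and 9.83% on all arrays, whereas on the 2nd day it is low on the forward arrays and at about 80.8% on the swapped ones.

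Over the 4 arrays of a time point and without a dye coefficient, no feature of the 5 genes passed an adjusted p of 0.05 in either reading. The share of all tested features that passed was 0% at each time in the turned reading and 0%, 0.0189% and 0.672% as deposited. The adjusted p of the genes ran from 0.497 to 0.967 turned.

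The difference between time points was tested in 1 fit over the 12 arrays. For Gbs-76A it was -0.37 from 12 hrs to the 2nd day (adjusted p = 0.752), 0.51 from the 2nd to the 7th day (adjusted p = 0.509) and 0.14 from 12 hrs to the 7th day (adjusted p = 0.992, turned, limma). As deposited the first and last were 0.23 and 0.44 (adjusted p = 0.999 and 0.358). No difference passed for PhKgamma B, Gbs-70E A or Gbs-70E B in either reading. Of all features 0% to 0.0403% passed turned and 0% to 0.225% as deposited. A change of these genes over time was thus not shown.

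Likeness to other genes could be described for Gbs-76A and Gbs-70E B, which had at least 10 arrays. In the turned reading the features most like Gbs-76A were Cnx99A (r = 0.960, 10 arrays), tamo (r = 0.938, 11 arrays) and CG12784 (r = 0.904, 10 arrays) of 1713 compared, and as deposited Lcch3, bsf and CG7611 (r = 0.943 to 0.875). For Gbs-70E B they were atilla, Tpr2 and Hrb27C (r = 0.935 to 0.930, 10 arrays, 782 compared) turned, and CG3008, Tpr2 and nahoda (r = 0.886 to 0.882) as deposited. The points share arrays, dye orientation and time points. The leading genes changed with the reading except for Tpr2.

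The wider pathway was read from a list of 43 genes, of which 26 were on the array and 13, not always the same ones, had at least 3 arrays at a time point. None passed over the 4 arrays at any time in either reading without a dye coefficient. With it, 3 of 13 were called lower on the 2nd day turned, beside 14.1% of all features. As deposited 5 were called lower, beside 23.5% of all features. In that reading 2 were called higher, a count that is not read further since the share over all features is not given. None was called in that fit at the other times. At 12 hrs their median was 0.12 turned and -0.0032 as deposited, beside 0.07 and 0.0002 over all features. It was -0.15 turned and -0.16 as deposited on the 2nd day, beside -0.08 and -0.10. On the 7th day it was 0.18 and -0.10, beside 0.16 and -0.13. The list median thus lay near that of all features at each time.

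With forward arrays alone, 7 of 13 listed genes were called lower on the 2nd day and 2 higher, beside 33.3% of all features lower and 7.43% higher. Downstream of the receptor, Galphas, the G protein subunit that raises cyclic AMP, was at -0.42 (adjusted p = 0.00687), and Pka-R1, a regulatory subunit of protein kinase A, at -0.56 (adjusted p = 0.000236). Galphaq, which acts on the calcium branch, was at -0.34, and Lsd-2, a lipid droplet protein, at -0.57. As deposited the swapped values of that day were 0.02 and -0.16 for Pka-R1, 0.11 for Galphaq, and -0.23 and 0.02 for Lsd-2. Galphas is the next feature to Gbs-76A in spot order, and its swapped values of 0.08 and 0.29 as deposited lay above 0 like those of Gbs-76A. At 12 hrs Galphas was at 0.08 and -0.06 on the forward arrays, where Gbs-76A was low.

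Both catalytic subunit genes of protein phosphatase 1 that were listed and on the array changed on the forward arrays of this day, in opposite directions. Pp1alpha-96A was at 0.67 (adjusted p = 9.82e-06) and flw at -0.59 (adjusted p = 0.000103). The single swapped value of Pp1alpha-96A on that day was 0.355 as deposited, above 0 like its forward values. As deposited flw was also low on the swapped arrays of the 2nd day, at -0.58 and -0.34, and its 4-array mean of -0.53 did not pass (adjusted p = 0.0984). Turned, it was at -0.07.

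Among the enzymes, UGP, which makes the glucose donor of glycogen synthesis, was at -0.37 (adjusted p = 0.0194), and Treh, which splits trehalose, at -0.37 (adjusted p = 0.0187) in the same fit. The higher gene beside Pp1alpha-96A was tobi at 0.32 (adjusted p = 0.0421), a glycosidase gene known to respond to insulin and adipokinetic hormone signals. As deposited the swapped values of that day were -0.11 and 0.47 for UGP, -0.04 and -0.10 for Treh, and 0.33 and 0.03 for tobi. None of the 12 listed genes tested on the forward arrays at 12 hrs passed, and none of 7 on the 7th day.

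Glycogen phosphorylase and glycogen synthase themselves had 4 arrays only on the 7th day. Glyp was at -0.19, 0.09, -0.27 and 0.02 as deposited, and Glys at -0.34, 0.01, 0.36 and 0.60. Turned, the mean of Glys was -0.32 (adjusted p = 0.964) and that of Glyp 0.04 (adjusted p = 0.984). As deposited both had the opposite sign, with Glys at 0.16 (adjusted p = 0.833) and Glyp at -0.09 (adjusted p = 0.920, limma). CG8475, the other regulatory subunit gene of phosphorylase kinase, had 2 values on that day, 0.64 and 0.002.

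**Figure D4:**
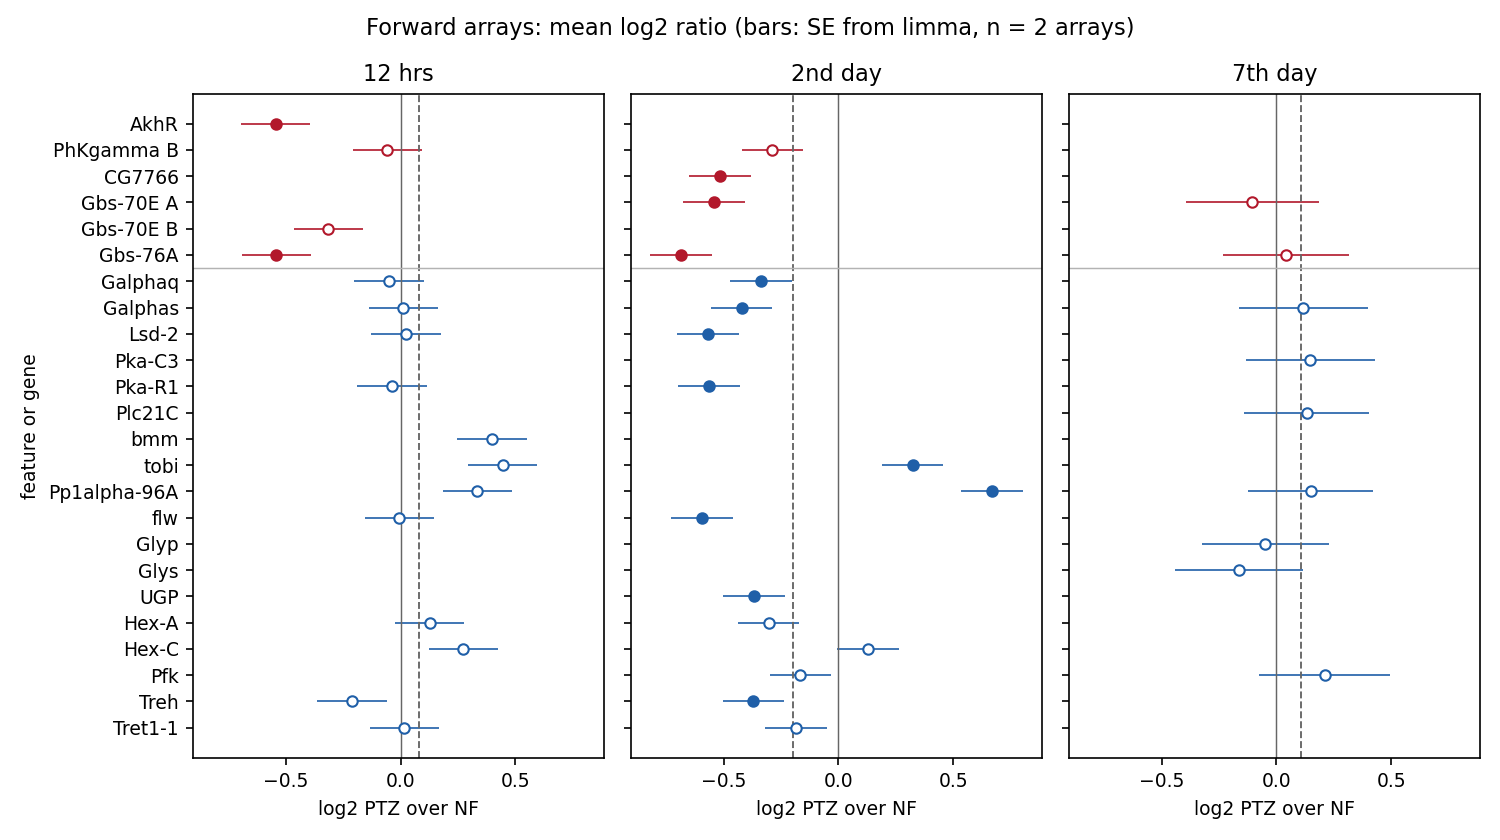
Mean log2 ratio of PTZ over NF on the 2 forward arrays (horizontal axis) for the genes described (red, above the line) and the pathway list (blue); bars are the SE from limma, filled circles passed an adjusted p of 0.05, and the dashed line is the median of all features. On the 2nd day 3 red and 9 blue genes are filled, while at 12 hrs only AkhR and Gbs-76A are.

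Markers of the fat body, the main site of glycogen storage and of the receptor, also changed on the 2nd-day forward arrays. Of 6 measured there, 4 were called lower, beside 33.3% of all features, namely apolpp at -1.63, Yp1 at -1.51, Cyp4d21 at -1.31 and Yp3 at -0.75, and the list ranged from -1.63 to -0.05 with a median of -1.03. The 2 values of Yp1 lay far apart, at -0.70 and -2.32. All flies were males, and Yp1, Yp2 and Yp3 are yolk protein genes, so they are poor markers of fat body here. The counts and medians of the list include them. Apart from them the genes called lower were apolpp and Cyp4d21. Whether each other listed gene marks fat body in heads of males was not tested. On the swapped arrays of that day apolpp was at -0.48 and -0.64 as deposited. Without a dye coefficient no fat body marker passed over the 4 arrays of 12 hrs or of the 2nd day in either reading. With it, 3 of 5 were called lower on the 2nd day turned and 4 of 5 as deposited, beside 14.1% and 23.5% of all features. As deposited apolpp passed on the 7th day, at -1.05 (n = 3, adjusted p = 0.00973, limma), beside 0.672% of all features. Its values were -0.64, -0.28 and, on the array with the median of -0.64, -2.23. In that fit limma drew the spread of all features to a common value, with an SE of 0.25 for Gbs-70E B at n = 3. The call of apolpp thus follows the size of its mean and not the agreement of its arrays. The other fat body markers tested that day, Fbp1 and Fbp2, had means above 0 as deposited, and the list median was 0.07. Turned, all 3 including apolpp were above 0, with a median of 0.47. On the forward arrays of 12 hrs 1 of 4 was called lower, beside 1.3% of all features, Cyp4d21 at -0.50, and the list median was 0.05. In pooled heads fewer cells of a type and less RNA per cell cannot be told apart, and the part of fat body content in the values of the 5 genes was not tested. Muscle markers had a median of -0.03 on those of the 2nd day, with none of 4 called. At 12 hrs 2 of 2 eye markers and 1 of 4 muscle markers were called higher on the forward arrays (1.42% of all features), the opposite direction to AkhR and Gbs-76A.

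The forward calls rest on 2 arrays each. In those fits limma drew the spread of every feature to a common value. The SE was 0.15 at 12 hrs and 0.13 on the 2nd day, so the p there follows the size of the mean. On the 2nd day 1 of the 2 arrays carries contradicting labels. The fit of the 7th day as deposited had a common spread too. Its SE was 0.21 for both Gbs-70E A and Gbs-76A, whose SDs were 0.78 and 0.23. In the 2nd-day fit with a dye coefficient the SEs of features with 4 arrays hardly differed among these genes.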

How the data were processed

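The deposited values are log2 ratios of 12 two-colour cDNA arrays. Per the labels and methods, the authors scanned them in GenePix, normalized them by ratio in Acuity and removed spots that were dim, saturated, flagged, uneven or not detectable above background; the removal of weak spots decides which features have a value. Their scale is log2 by its range, their centre was set by the authors' normalization, and nothing read here gives their direction on swapped arrays. Every value column was assigned to a sample.

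Adjacent spots of a probe (27648 spots in all) were averaged. Features with at least 3 of 4 arrays (4642, 5279 and 4316) were tested per time point with limma 3.58.1 in R 4.3.3, 2-sided, with Benjamini-Hochberg adjustment over all of them and a threshold of 0.05. This stands in for the one-class SAM of the methods. Time points were compared in 1 fit over 12 arrays. The test was tried on simulated data before use. Probe names came from the platform annotation and were updated by gene ID (7447 of 7558 features matched). Array number limits the precision. The arrays compare pooled heads, which the methods call biological replicates. The p-values rest on the spread as moderated by limma. In some fits that was a common value for all features and not each feature's own spread between arrays.

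Named genes are the 5 genes, listed pathway genes past the threshold (those on the forward arrays alone were added after their values were seen) or in a core subset measured on at least 3 arrays, and the 3 most like features. The genes and lists were chosen with earlier results of these data known. Alternatives were the reading as deposited, a dye coefficient, one orientation only, centring, subtraction of neighbours, other filters, the replicate block and leaving out each replicate. No sequence is shown, since only gene names were used here.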

Additional observations from a re-analysis of the deposited data

How the results depend on the processing

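The counts of features past the threshold over the 4 arrays depended on the fit. At 12 hrs the turned reading gave 0 and the forward arrays alone 107; leaving out 1 replicate gave 0 to 43 turned and 0 to 7 as deposited, both highest without replicate 3. On the 2nd day 0 passed turned, 1 as deposited, 976 with a dye coefficient turned and 1541 with it as deposited, 2022 on the forward and 54 on the swapped arrays alone, and 0 as deposited with centring or neighbours subtracted; leaving out 1 replicate gave 0 to 5 turned and 0 to 102 as deposited, the latter highest without replicate 4. On the 7th day 0 passed turned, 29 as deposited, 9 with a dye coefficient as deposited, 5 on the swapped arrays alone, and 0 as deposited with centring or neighbours subtracted; leaving out 1 replicate gave 0 to 61 turned (highest without replicate 1) and 0 to 81 as deposited (highest without replicate 2). From the 2nd to the 7th day 1 passed, 0 with the replicate block, and 0 to 1 without 1 replicate. From 12 hrs to the 7th day 0 passed, 5 as deposited and 1 with centring. The causes were not tested.

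Several means changed sign between settings. At 12 hrs PhKgamma B was at -0.14 as deposited, -0.057 on the forward arrays, and 0.11 as deposited with neighbours subtracted. Gbs-70E B was at -0.39 as deposited, -0.31 on the forward arrays, -0.10 without replicate 3 and -0.02 without replicate 4. AkhR was at 0.026 with neighbours subtracted and 0.22 on the swapped arrays turned. Gbs-76A was at 0.45 on the swapped arrays turned, and -0.26 to 0.12 leaving out 1 replicate, above 0 without replicate 1 or 2. On the 2nd day PhKgamma B was at 0.11 with neighbours subtracted in either reading, 0.074 on the swapped arrays turned, and -0.19 to 0.0037 leaving out 1 replicate. Gbs-70E A was at 0.024 on the swapped arrays turned, Gbs-70E B at 0.056 as deposited with centring, and CG7766 at 0.0027 as deposited with neighbours subtracted. On the 7th day Gbs-70E A was at -0.38 as deposited, -0.040 with neighbours subtracted, -0.10 on the forward arrays and -0.13 to 0.50 leaving out 1 replicate, lowest without replicate 4. Gbs-70E B was at -0.50 as deposited and -0.029 with neighbours subtracted. Gbs-76A was at -0.051 as deposited, -0.12 with centring and -0.084 with neighbours subtracted; as deposited with centring it was at 0.078, with neighbours subtracted at 0.097 and without replicate 4 at 0.054. Between times, as deposited, Gbs-70E B was at 0.36 (2nd day minus 12 hrs), -0.48 (7th minus 2nd day) and -0.12 (7th day minus 12 hrs), and Gbs-76A at 0.23 from 12 hrs to the 2nd day, and Gbs-70E A at -0.10 from the 2nd to the 7th day. From 12 hrs to the 7th day Gbs-76A was at -0.010 with centring and -0.050 to 0.41 leaving out 1 replicate, lowest without replicate 1, and Gbs-70E B at -0.088 with neighbours subtracted. None of these values with a changed sign passed the threshold. Of the genes concerned, AkhR and Gbs-76A at 12 hrs passed on the forward arrays, and CG7766 and Gbs-70E A on the 2nd day on the forward arrays and with the dye coefficient, all below 0.

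Same-numbered arrays of different times correlated between -0.07 and 0.26 in their deviations, over 0.1 in 4 of 12 pairs. Arrays of another number but the same orientation correlated between -0.125 and 0.289, over 0.1 in 5 of 12. Arrays of the same number always shared the dye orientation, so whether the numbers pair the arrays could not be decided. With the replicate block no difference between times passed, and that of Gbs-76A from the 2nd to the 7th day was 0.51 (adjusted p = 0.573). The settings with subtracted neighbours, centring or left-out replicates read as deposited were added after seeing the data.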
